A study of Homo sapiens with 4 samples.

Results

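Genes of fatty acid, phospholipid and sphingolipid metabolism were followed in J.gamma1 cells, a derivative of the human T-lymphoblastic leukaemia line Jurkat. The 52 genes were chosen by name, as the enzymes of fatty acid synthesis, elongation, desaturation, activation and oxidation, of phospholipid synthesis and of sphingolipid turnover, with CREB3L3 and 2 perilipins. All 52 were found among the 64252 gene IDs of the deposited count table. Treatment lasted 48 h, either with 10 µM FB23-2, a small-molecule inhibitor of the RNA m6A demethylase FTO, or with DMSO alone at under 0.1%. Each group held 2 biological replicates, independent of each other per the labels. J.gamma1 is a mutant clone known to lack the signalling enzyme PLCG1, which both groups share.

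Library totals ran from 24615359 to 37804516 counts, so that 3 counts correspond to 0.0794 to 0.122 CPM, counts scaled to a common library total. The mitochondrial genome took 5.956% to 6.39% of counts. All 14 T-lineage markers looked up were tested, and their summed level was 1894 to 1951 CPM with FB23-2 and 2400 to 2418 CPM in control. Of these markers, 9 (64.3%) were lower and 2 (14.3%), TRAC and PTPRC, higher at an edgeR adjusted p below 0.05. The shares were 20.3% and 21.8% over all tested genes, and 26.5% and 30.1% over those at a mean of 5 CPM or more. Of 15 markers of other cell types, 7 were tested, with summed levels of 105 to 109 CPM with FB23-2 and 154 to 163 CPM in control. PECAM1, an adhesion molecule of endothelial and blood cells, and CD79A, a B-lineage signalling protein, made up most of that sum. The monocyte marker CD14 stayed at or below 0.208 CPM. The part of these differences in the results below was not tested. PLCG1 RNA was present, at 265 CPM in both control libraries and 291 and 295 CPM with FB23-2, and MYC fell (log2 fold change -2.55 ± 0.06 SE, edgeR adjusted p = 3.75e-08).

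Cells build fatty acids in the cytosol from acetyl-CoA, which ACLY makes from citrate and ACSS2 from acetate. The carboxylases ACACA and ACACB turn it into malonyl-CoA, and FASN joins these units into palmitate, which is then elongated, desaturated and activated to acyl-CoA. Acyl-CoA is either burned in mitochondria, after entry through CPT1A and CPT2, or built into glycerolipids, phospholipids and sphingolipids. Many of these genes are known targets of the SREBP transcription factors, and dividing leukaemia cells are known to make much of their own membrane lipid.

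Levels are given as CPM after TMM scaling, a correction of library size by the trimmed mean of gene ratios. Changes are log2 fold changes, positive where FB23-2 was higher, each followed by its standard error (SE). Adjusted p values are from edgeR's quasi-likelihood test over all 18817 tested genes, and a gene is called changed at an adjusted p below 0.05. In bulk RNA, fewer cells of a kind and less RNA per cell cannot be told apart.

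Of the 52 genes, 51 passed the filter on low counts, and PLIN2 did not. With FB23-2, 19 of the 51 rose and 10 fell, or 37.3% and 19.6%, against 21.8% and 20.3% of all tested genes. Lipid genes are well expressed, and among tested genes at a mean of 5 CPM or more the shares were 30.1% higher and 26.5% lower. The 49 lipid genes at that level included every changed one, which made 38.8% higher and 20.4% lower. The total share that changed was thus close to that of other genes of such levels (56.6%). Counts per role and per list below are to be set beside these shares and were not tested against them. Changes were small: the median absolute log2 fold change was 0.20 in these 49 genes and 0.27 over all 11851 tested genes at that level. At least 1.5-fold changes were found in 2 lipid genes that rose, CREB3L3 and ACSS2, and in 2 that fell, FASN and FADS3. Such changes took 7.76% of all tested genes upward and 9.61% downward. A set of 10 genes was called in the same direction under all 13 alternative settings, including a test against a 1.2-fold change. These were ACSS2, CREB3L3, LPIN1, LPIN2 and PCYT1A, which rose, and FASN, ACACA, FADS3, ACAA1 and CHKA, which fell. The other 19 calls, each with an absolute log2 fold change of at most 0.34, did not pass the 1.2-fold test, and settings besides it that ended one of them are named with the gene.

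**Figure D1:**
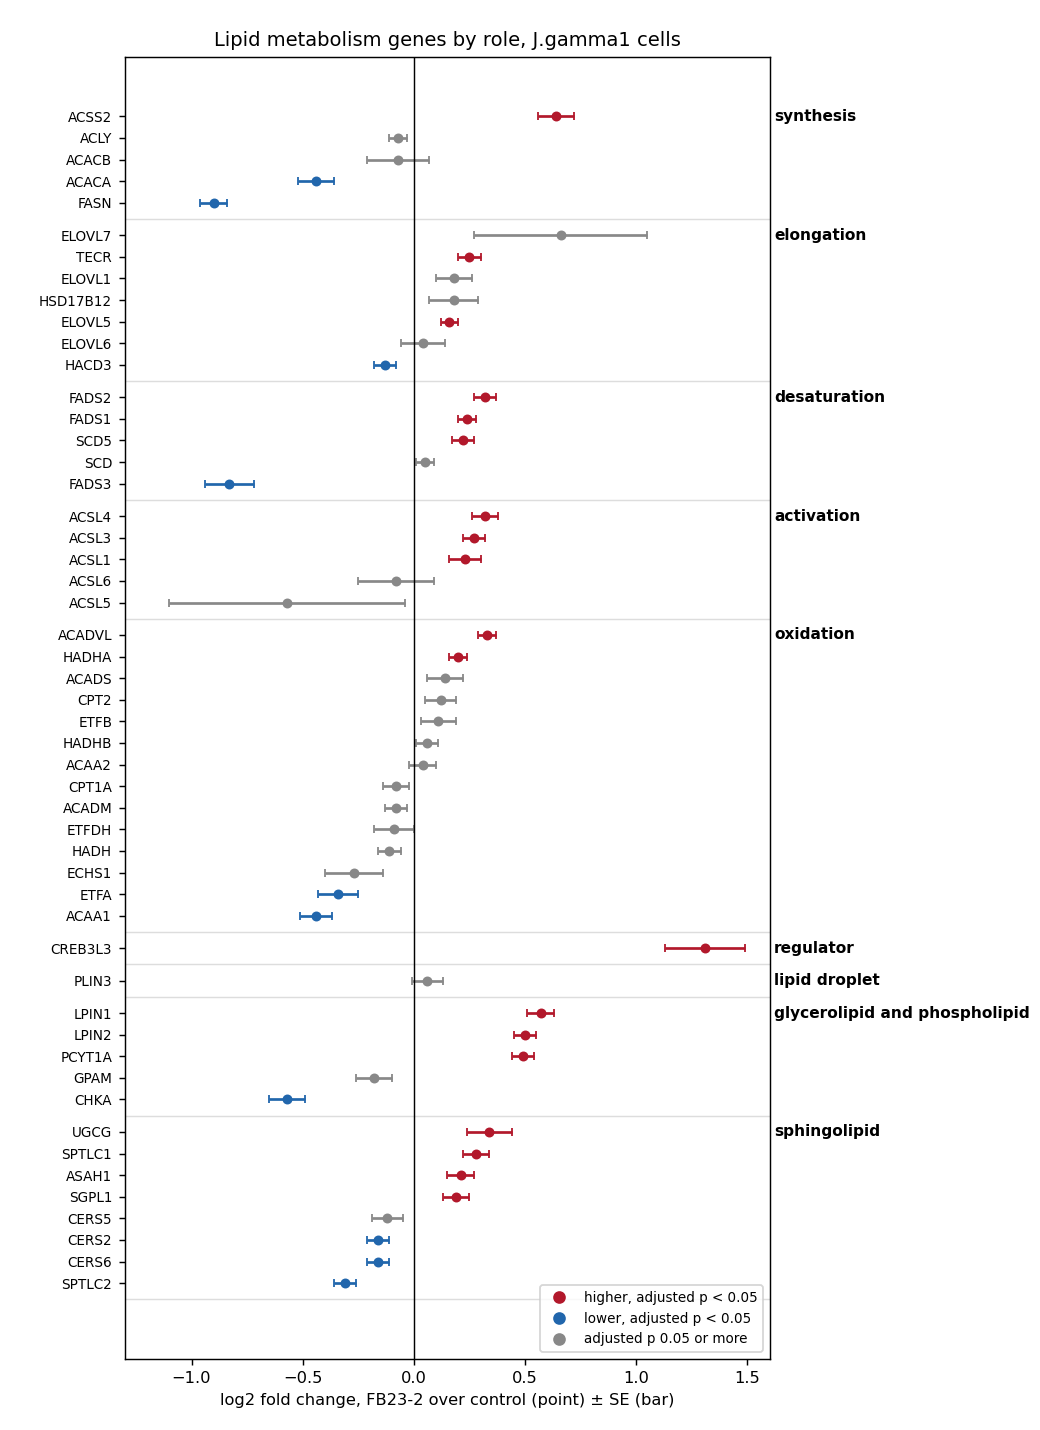
Log2 fold change (x axis, FB23-2 over control, point with SE bar) of the 51 tested lipid genes, grouped by role and coloured by call. CREB3L3 stands farthest to the right at 1.31 and FASN farthest to the left at -0.90, and most oxidation genes lie near 0.

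The sequences before the start sites are shown for 5 genes: the 2 that rose most, the FADS family member that fell while its neighbours rose, and the serine palmitoyltransferase subunits, which moved in opposite directions. They are RefSeq promoters on GRCh38.p14, read 5′ to 3′ on the strand of the gene, without bases that GENCODE 29 annotates as exon. For ACSS2, FADS3, SPTLC2 and CREB3L3 the RefSeq start lies inside the GENCODE 29 span of the gene. The stretch shown for ACSS2 and for FADS3 does not precede the first annotated base of the gene. The stretches of SPTLC2 and CREB3L3 end at the base before it. The windows are chr11:61891546-61891795 on the minus strand, chr9:92115414-92115663 on the minus strand, chr14:77616774-77616887 on the minus strand, chr19:4153381-4153600 on the plus strand and chr20:34874739-34874941 on the plus strand. Capitals mark the CCAAT box, which NF-Y is known to bind, as CCAAT or as its reverse complement ATTGG.
FADS3: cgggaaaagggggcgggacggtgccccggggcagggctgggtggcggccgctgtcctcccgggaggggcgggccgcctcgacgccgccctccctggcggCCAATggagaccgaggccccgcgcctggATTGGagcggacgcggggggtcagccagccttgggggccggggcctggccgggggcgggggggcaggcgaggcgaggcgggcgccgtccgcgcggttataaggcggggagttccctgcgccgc
SPTLC1: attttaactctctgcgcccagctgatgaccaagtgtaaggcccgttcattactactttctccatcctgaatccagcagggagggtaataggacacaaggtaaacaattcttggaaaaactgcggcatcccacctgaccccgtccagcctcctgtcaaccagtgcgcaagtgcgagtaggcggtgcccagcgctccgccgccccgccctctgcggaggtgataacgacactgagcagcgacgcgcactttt
SPTLC2: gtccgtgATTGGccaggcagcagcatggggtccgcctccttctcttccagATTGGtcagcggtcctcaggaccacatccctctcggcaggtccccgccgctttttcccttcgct
CREB3L3: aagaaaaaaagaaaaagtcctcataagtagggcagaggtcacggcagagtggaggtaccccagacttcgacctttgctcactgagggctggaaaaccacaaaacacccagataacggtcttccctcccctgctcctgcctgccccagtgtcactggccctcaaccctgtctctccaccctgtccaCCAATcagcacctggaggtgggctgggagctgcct
ACSS2: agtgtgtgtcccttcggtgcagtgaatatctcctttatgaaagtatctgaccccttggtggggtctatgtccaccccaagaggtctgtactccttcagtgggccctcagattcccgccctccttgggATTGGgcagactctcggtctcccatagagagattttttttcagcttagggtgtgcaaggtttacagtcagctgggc
FADS3 and SPTLC2 each hold 2 CCAAT boxes in the stretch shown, CREB3L3 and ACSS2 hold 1 each, and SPTLC1 holds none. The stretches differ in length, from 114 bases for SPTLC2 to 250 for FADS3 and SPTLC1. That of SPTLC2 ends 137 bases before its start, so that another box at -69 to -65 is not shown.

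Promoter windows from 250 bases before to 50 after the start were found for 45 of the 52 genes and searched on both strands. FASN, HSD17B12, ACAA1, ETFDH, CHKA, CERS2 and ASAH1 were not matched. Of these, FASN, ACAA1, CHKA and CERS2 fell and ASAH1 rose, so that only 6 of the 10 genes that fell had a window. The letters CCAAT were in 18 of 45 windows (40%), against 35.7% of 27305 windows of all genes. By call, they were in 5 of 6 windows of genes that fell, 7 of 18 of genes that rose and 6 of 20 of genes not called. The E-box CACGTG, which MYC and other helix-loop-helix factors are known to bind, was in 2 of 45, those of ELOVL5 and PLIN2, against 7.43% of all. The sterol regulatory element letters TCACNCCAC were in 0 of 45, against 1.15% of all, and the PPAR element, a direct repeat of AGGTCA with 1 base between, was in 0 of 45, against 0.022%. The amino acid response letters TGATGNAA, known to be bound by ATF4 with C/EBP factors, were in 1 of 45, PCYT1A, across its start site, against 3.67% of all. No match in these genes overlapped a match of another motif. These matches are a description of letters in a short window and were not tested.

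The cytosolic synthesis enzymes split, with 1 of 5 higher and 2 lower. FASN, fatty acid synthase (ENSG00000169710, chromosome 17, 82078333 to 82098332 of hg38), stood at 156 and 172 CPM in the control libraries and at 88.1 and 88.0 CPM with FB23-2. Both FB23-2 libraries were far below both controls, a log2 fold change of -0.90 ± 0.06 (edgeR adjusted p = 3.19e-06). ACACA, the carboxylase that supplies malonyl-CoA for synthesis, went from 59.6 and 55.8 to 39.9 and 45.1 CPM (-0.44 ± 0.08, edgeR adjusted p = 0.00146). ACACB, the carboxylase at the mitochondrial surface, had overlapping groups and did not pass (-0.07 ± 0.14).

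The 2 sources of cytosolic acetyl-CoA did not move alike. ACLY, which splits citrate, stood at 361 and 354 CPM in control and 349 and 331 CPM with FB23-2. Its groups did not overlap, but the difference did not pass (-0.07 ± 0.04, edgeR adjusted p = 0.207). ACSS2, which activates acetate (ENSG00000131069, chromosome 20, 34872146 to 34927962), rose from 21.1 and 20.7 to 32.9 and 32.3 CPM (0.64 ± 0.08, edgeR adjusted p = 0.00021). Per kb of exon, ACSS2 was 5.35% and 5.37% of the summed level of the pair in control and 8.36% and 8.63% with FB23-2, so that ACLY remained the far more abundant RNA. Summed over the 5 synthesis genes, the level was 614 and 620 CPM in control and 525 and 516 CPM with FB23-2.

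**Figure D2:**
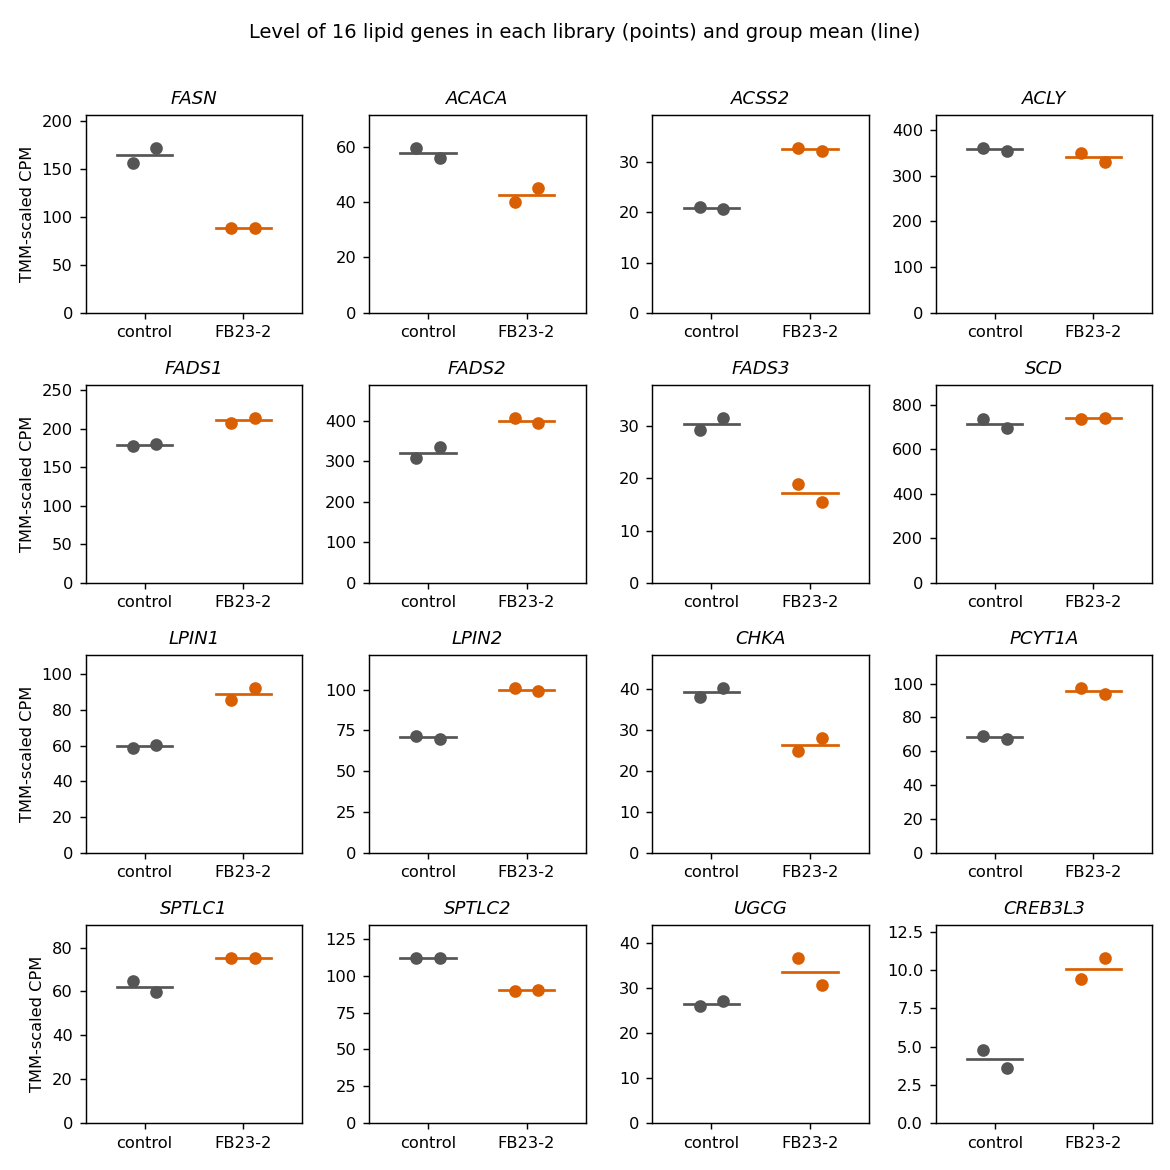
TMM-scaled CPM (y axis, from 0) of 16 lipid genes in each control and FB23-2 library (points), with the group mean (line). FASN points lie at 156 and 172 CPM in control and near 88 CPM with FB23-2. The panels are a choice that leaves out lipid genes whose groups overlap, such as ACACB and CPT1A.

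In the elongation cycle 2 of 7 genes rose and 1 fell. ELOVL5, the elongase of polyunsaturated chains, was the most abundant elongase per kb in these cells (135 and 138 CPM per kb in control). It made up 85.5% to 86.3% of the summed level of ELOVL1, ELOVL5, ELOVL6 and ELOVL7. That share leaves out ELOVL4, a gene of the other lists, at a mean of 31.3 CPM per kb in control and 36.7 with FB23-2. ELOVL4 was thus above ELOVL1 (18.7 and 21.3). It was called higher (0.23 ± 0.06, edgeR adjusted p = 0.00938), but not in the 1.2-fold test (0.717). ELOVL5 rose from 513 and 528 to 586 and 579 CPM. That change of 0.16 ± 0.04 (edgeR adjusted p = 0.00545) missed the threshold when control replicate 1 was omitted (edgeR adjusted p = 0.121, alternatives spanning 0.000651 to 1). TECR, the reductase that ends each elongation cycle, rose by 0.25 ± 0.05. HACD3, a dehydratase of the cycle, was narrowly called lower (-0.13 ± 0.05, edgeR adjusted p = 0.0467). It was not called by DESeq2 (adjusted p = 0.127), nor with library size scaling, with no filter, or with any 1 library left out (adjusted p of 0.0737 to 0.218, range over the alternatives 0.0138 to 1). ELOVL6, which takes palmitate to stearate, had 26.8 and 22.2 CPM in control and 25.4 and 24.7 CPM with FB23-2, inside the spread of the controls (0.04 ± 0.10). ELOVL7 (0.66 ± 0.39) and the reductase HSD17B12 (0.18 ± 0.11) overlapped between groups as well. ELOVL1, the elongase of saturated very long chains (0.18 ± 0.08, edgeR adjusted p = 0.0967), passed only with library size scaling (0.0452) and without control replicate 2 (0.0347), in a range that reached 0.886.

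Desaturases, which place double bonds, rose in 3 of 5 cases and fell in 1. SCD, which makes oleate and was the most abundant of all 52 genes by CPM, stood at 735 and 697 CPM in control and 737 and 742 CPM with FB23-2. This difference of 0.05 ± 0.04 did not pass (edgeR adjusted p = 0.357). SCD5, its paralog, rose by 0.22 ± 0.05. Omitting FB23-2 replicate 1 raised its edgeR adjusted p to 0.0575, omitting control replicate 2 to 0.0651, and the alternatives spanned 0.00228 to 0.847.

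FADS1, FADS2 and FADS3 lie in 1 cluster on chromosome 11, at 61799625 to 61829318, 61792980 to 61867354 and 61873519 to 61892051. FADS2, the delta-6 desaturase that opens the polyunsaturated pathway, rose from 308 and 334 to 407 and 394 CPM (0.32 ± 0.05, edgeR adjusted p = 0.000544). FADS1, the delta-5 desaturase that acts later in it, rose from 177 and 180 to 208 and 214 CPM (0.24 ± 0.04, edgeR adjusted p = 0.00129). FADS3, known to desaturate the sphingoid base of ceramides, fell from 29.3 and 31.6 to 18.9 and 15.5 CPM (-0.83 ± 0.11, edgeR adjusted p = 0.000266). No FADS gene had overlapping groups. Per kb, FADS3 went from 9.36% and 9.5% of the 3 genes' summed level to 4.99% and 4.16%. FADS1 lies within the span of FADS2 on the opposite strand and shares 4.8% of its exon bases with it, and both moved the same way. The CCAAT boxes of the FADS3 promoter are in the sequence above.

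Acyl-CoA synthetases, which activate free fatty acids, rose in 3 of 5 cases and fell in none. ACSL4, known to prefer arachidonate and to feed lipid peroxidation, went from 75.5 and 82.0 to 97.9 and 99.7 CPM (0.32 ± 0.06, edgeR adjusted p = 0.00141). Both FB23-2 libraries were above both controls. ACSL3, an isoform of the endoplasmic reticulum and lipid droplets, rose by 0.27 ± 0.05. When control replicate 1 was omitted its edgeR adjusted p was 0.052, and the alternatives spanned 0.00119 to 0.49. ACSL1 rose by 0.23 ± 0.07. Its call was lost, by edgeR adjusted p, on omitting FB23-2 replicate 1 (0.144), FB23-2 replicate 2 (0.0541) or control replicate 1 (0.221), and with upper quartile scaling (0.0588) or no filter (0.082), the alternatives spanning 0.0119 to 0.676. The same 3 genes made up nearly all of the family per kb, and their shares stayed between 20.6% and 21.6% for ACSL1, 40.1% and 42% for ACSL3 and 35.5% and 37.7% for ACSL4. ACSL5 (0.262 to 0.523 CPM, -0.57 ± 0.53) and ACSL6 (5.52 to 6.95 CPM, -0.08 ± 0.17) did not pass.

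**Figure D3:**
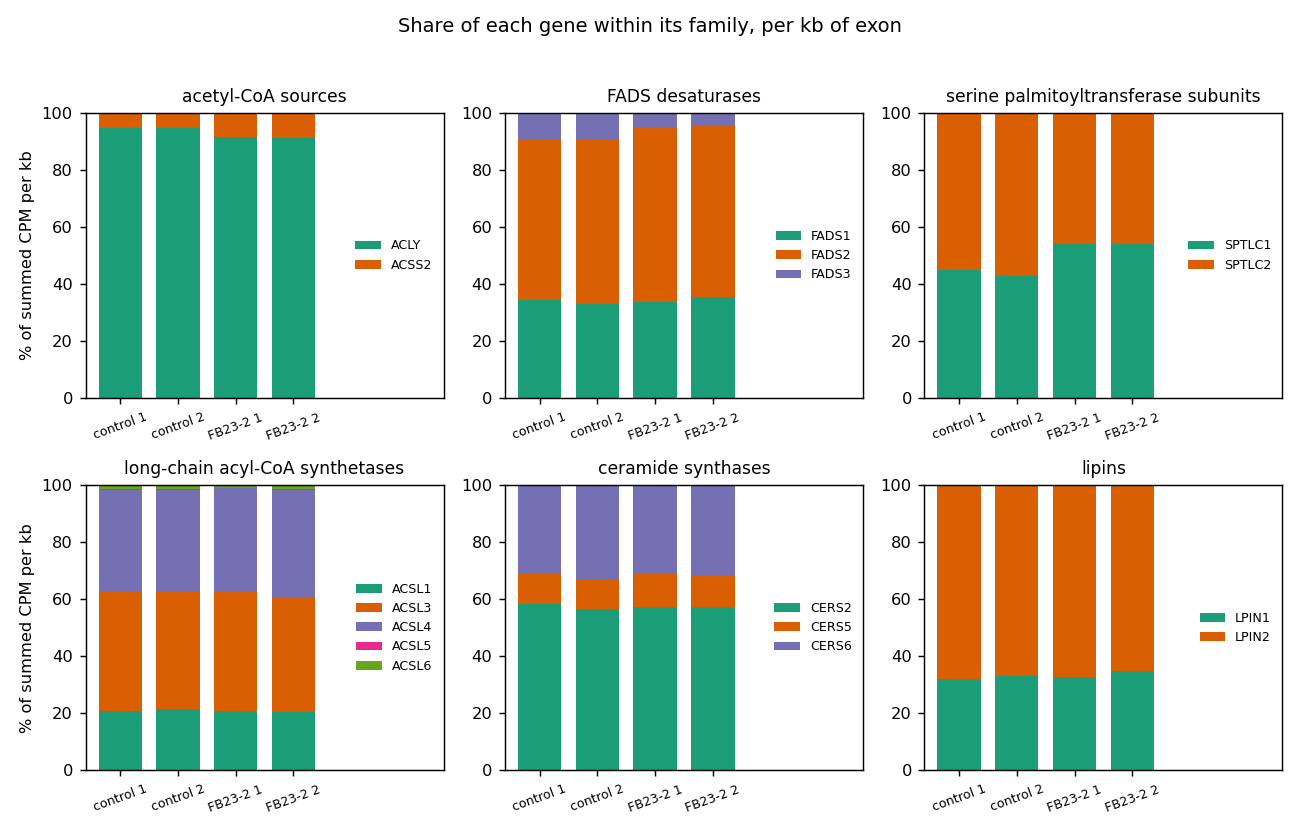
Share (y axis, percent of summed CPM per kb of exon) of each gene within 6 families, with 1 bar per library. SPTLC1 goes from 44.8% and 43% in control to 54.2% and 53.9% with FB23-2, and the FADS3 share falls. The ACSL, ceramide synthase and lipin bars look alike in all libraries. Only genes among the 52 are included, so that CERS4, which fell (-0.59 ± 0.10), is not in the ceramide synthase bars.

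Most oxidation genes were not called: 2 of 14 rose, 2 fell and 10 were not called, with a median of -0.02 against 0.00 over all tested genes. CPT1A, the gate for entry of long chains into mitochondria, stood at 148 and 133 CPM in control and 132 and 134 CPM with FB23-2. Its groups overlapped (-0.08 ± 0.06, edgeR adjusted p = 0.312), and CPT2, its partner on the inner membrane, did not pass either (0.12 ± 0.07). ACADVL, which oxidizes very long chains first, rose from 223 and 217 to 278 and 277 CPM (0.33 ± 0.04, edgeR adjusted p = 0.000143). HADHA, the alpha subunit of the trifunctional protein, rose from 172 and 179 to 203 and 201 CPM (0.20 ± 0.04). Omitting control replicate 1 ended that call, with an edgeR adjusted p of 0.0754 (alternatives 0.00128 to 0.965). HADHB, the beta subunit of the same complex, stood at 80.1 and 80.2 CPM in control and 82.6 and 84.4 CPM with FB23-2 and did not pass (0.06 ± 0.05).

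ACAA1, the thiolase of peroxisomes rather than mitochondria, fell from 56.1 and 62.9 to 45.5 and 42.6 CPM (-0.44 ± 0.07, edgeR adjusted p = 0.00126). Its mitochondrial counterpart ACAA2 did not pass (0.04 ± 0.06). ACAA1 shares 19.7% of its exon bases with DLEC1 on the opposite strand, a gene with 178 counts over all libraries. ETFA, the alpha subunit of the electron carrier that takes electrons from the acyl-CoA dehydrogenases, fell by 0.34 on the log2 scale (SE 0.09). Its edgeR adjusted p became 0.0599 on omitting FB23-2 replicate 2 and 0.138 on omitting control replicate 2 (alternatives 0.0064 to 0.217). Its partner ETFB (0.11 ± 0.08) was called only without FB23-2 replicate 2 (edgeR adjusted p = 0.0452, in a range that reached 1). The hydratase ECHS1 (-0.27 ± 0.13) had 63.1 and 48.6 CPM in the FB23-2 libraries, and was called only without FB23-2 replicate 1 (edgeR adjusted p = 0.00218, range up to 0.545). HADH (-0.11 ± 0.05) passed only with upper quartile scaling (edgeR adjusted p = 0.0309, range up to 1). The medium- and short-chain dehydrogenases ACADM (-0.08 ± 0.05) and ACADS (0.14 ± 0.08) and the ubiquinone reductase ETFDH (-0.09 ± 0.09) did not pass.

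CREB3L3, a membrane-bound transcription factor best known from liver, where it induces lipid oxidation and transport genes on starvation, had the largest change of the 51 tested genes. CREB3L3 (ENSG00000060566, chromosome 19, 4153601 to 4173054) stood at 4.77 and 3.57 CPM in control and at 9.40 and 10.8 CPM with FB23-2. The groups did not overlap (1.31 ± 0.18, edgeR adjusted p = 0.00041). These values rest on 115 and 123 counts in control and 359 and 376 with FB23-2. PPARGC1A, a coactivator of oxidation genes, was at or below 0.317 CPM in every library and was not tested.

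No change was called in the lipid droplet coat genes. PLIN2 had 7 and 5 counts in the control libraries and 2 and 4 with FB23-2, near the 3 counts that a count of 0 allows, and was not tested. PLIN3 overlapped between groups at 45.3 and 42.5 CPM in control and 47.2 and 43.9 CPM with FB23-2 (0.06 ± 0.07).

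Of the glycerolipid and phospholipid genes 3 of 5 rose and 1 fell, where 56.6% of all tested genes at 5 CPM or more were called. Their median absolute log2 fold change was 0.50, against 0.34 over all tested genes and 0.27 over those at 5 CPM or more. The lipins, phosphatases that turn phosphatidic acid into diacylglycerol, rose together. LPIN1 went from 58.9 and 60.7 to 85.6 and 92.4 CPM (0.57 ± 0.06, edgeR adjusted p = 6.87e-05). LPIN2 went from 71.5 and 70.0 to 101 and 99.0 CPM (0.50 ± 0.05, edgeR adjusted p = 5.64e-05), and in both genes the groups were far apart. Their proportion moved little, with LPIN1 at 32.1% and 33.2% of the pair per kb in control and 32.7% and 34.9% with FB23-2. GPAM, the mitochondrial acyltransferase that starts glycerolipid synthesis, was not called (-0.18 ± 0.08, edgeR adjusted p = 0.0993). It passed narrowly with upper quartile scaling (0.0497) and on omitting FB23-2 replicate 2 (0.0476), and elsewhere the edgeR adjusted p reached 0.887.

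Consecutive steps of phosphatidylcholine synthesis moved apart. CHKA, the choline kinase of the first step, fell from 38.1 and 40.2 to 24.9 and 27.9 CPM (-0.57 ± 0.08, edgeR adjusted p = 0.000523). PCYT1A, which makes CDP-choline in the next and rate-limiting step, rose from 69.1 and 67.3 to 97.4 and 93.7 CPM (0.49 ± 0.05, edgeR adjusted p = 8.61e-05). In neither gene did the groups overlap.

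Sphingolipid genes were called in 7 of 8 cases, 4 higher and 3 lower, but each change was small (largest absolute log2 fold change 0.34). Over all tested genes 42.1% were called, and 56.6% of those at 5 CPM or more. The 2 subunits of serine palmitoyltransferase, which starts sphingolipid synthesis, moved in opposite directions. SPTLC1 rose from 64.5 and 59.8 to 75.2 and 75 CPM (0.28 ± 0.06, edgeR adjusted p = 0.00452), a call lost on omitting control replicate 2 (edgeR adjusted p = 0.0594, alternatives 0.00167 to 0.419). SPTLC2, the subunit that carries the cofactor, fell from 112 CPM in both control libraries to 89.7 and 90.6 CPM (-0.31 ± 0.05, edgeR adjusted p = 0.000648). Per kb of exon, SPTLC1 went from 44.8% and 43% of the pair to 54.2% and 53.9%. The order of the 2 subunits switched on this scale only, since in CPM SPTLC2 stayed above SPTLC1 in every library. Their promoter sequences are printed above.

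Ceramide synthases acylate the sphingoid base. CERS2, which makes very long chain ceramides, and CERS6, which makes palmitoyl ceramide, were both called lower (-0.16 ± 0.05 each), and CERS5 was not (-0.12 ± 0.07). Neither call held by DESeq2 (adjusted p = 0.0607 for CERS2 and 0.0716 for CERS6) or with library size scaling (edgeR adjusted p = 0.0776 and 0.0884). With no filter their edgeR adjusted p values were 0.0772 and 0.0766. The CERS2 call was also lost on omitting FB23-2 replicate 2 (0.129), control replicate 1 (0.117) or control replicate 2 (0.0713), with alternatives from 0.00685 to 1. For CERS6 the same held of FB23-2 replicate 2 (0.102) and of control replicate 2 (0.22), with alternatives from 0.00814 to 1. CERS2 shares 20.4% of its exon bases with SETDB1 on the opposite strand, a gene that was not called (-0.02 ± 0.06).

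The remaining 3 genes act on ceramide or its products, and each was called higher. UGCG, which makes glucosylceramide, rose from 25.9 and 27.0 to 36.6 and 30.6 CPM (0.34 ± 0.10, edgeR adjusted p = 0.0203). ASAH1, the lysosomal acid ceramidase (0.21 ± 0.06), and SGPL1, the lyase that removes sphingosine 1-phosphate (0.19 ± 0.06), rose as well. None of these 3 calls was firm. With no filter the edgeR adjusted p was 0.0777 for UGCG, 0.0606 for ASAH1 and 0.092 for SGPL1, and with upper quartile scaling it was 0.0538 for ASAH1 and 0.0793 for SGPL1. Omission of a library ended the UGCG call in 3 of 4 cases, FB23-2 replicate 1 (0.182), control replicate 1 (0.12) and control replicate 2 (0.083), with alternatives from 0.00655 to 0.235. For ASAH1 these were FB23-2 replicate 1 (0.109), FB23-2 replicate 2 (0.053) and control replicate 1 (0.178), with alternatives from 0.00821 to 0.854. For SGPL1 they were FB23-2 replicate 1 (0.136), FB23-2 replicate 2 (0.111) and control replicate 2 (0.279), with alternatives from 0.0104 to 0.936.

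Other genes of the same pathways were looked up as 5 lists of 148 genes in all. Of these 135 were tested, 42 were higher and 35 lower, or 31.1% and 25.9%, against 21.8% and 20.3% of all tested genes. Among all tested genes at 5 CPM or more, a filter not applied to these lists, the shares were 30.1% and 26.5%. Among regulators of lipid genes 8 of 15 rose and 3 fell, with a median of 0.31. SREBF2, the SREBP that drives sterol genes, rose from 254 and 271 to 353 and 354 CPM (0.43 ± 0.04), with INSIG1 (0.36 ± 0.03) and INSIG2 (0.53 ± 0.06), the anchors that hold SREBPs in the endoplasmic reticulum. SREBF1, whose product drives fatty acid synthesis genes, fell from 147 and 159 to 131 CPM in both FB23-2 libraries (-0.23 ± 0.05). On omitting control replicate 2 its edgeR adjusted p was 0.0856, and in the 1.2-fold test it was 0.773 (lowest alternative 0.00239). SCAP, the SREBP escort, was called narrowly (-0.15 ± 0.05, edgeR adjusted p = 0.0485). SCAP did not pass with library size scaling, with no filter, by DESeq2 (0.141) or on omitting any 1 library (edgeR adjusted p of 0.0563 to 0.222, all alternatives 0.017 to 1). The nuclear receptors NR1H3, also known as LXR alpha (0.76 ± 0.14), and PPARD (0.60 ± 0.08) rose. PPARGC1B, a coactivator of SREBPs and of mitochondrial genes, fell from 27.4 and 25.3 to 9.16 and 10.5 CPM (-1.42 ± 0.11, edgeR adjusted p = 1.19e-05). MLXIPL, the carbohydrate-responsive factor ChREBP, had 0 counts in all libraries.

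**Figure D4:**
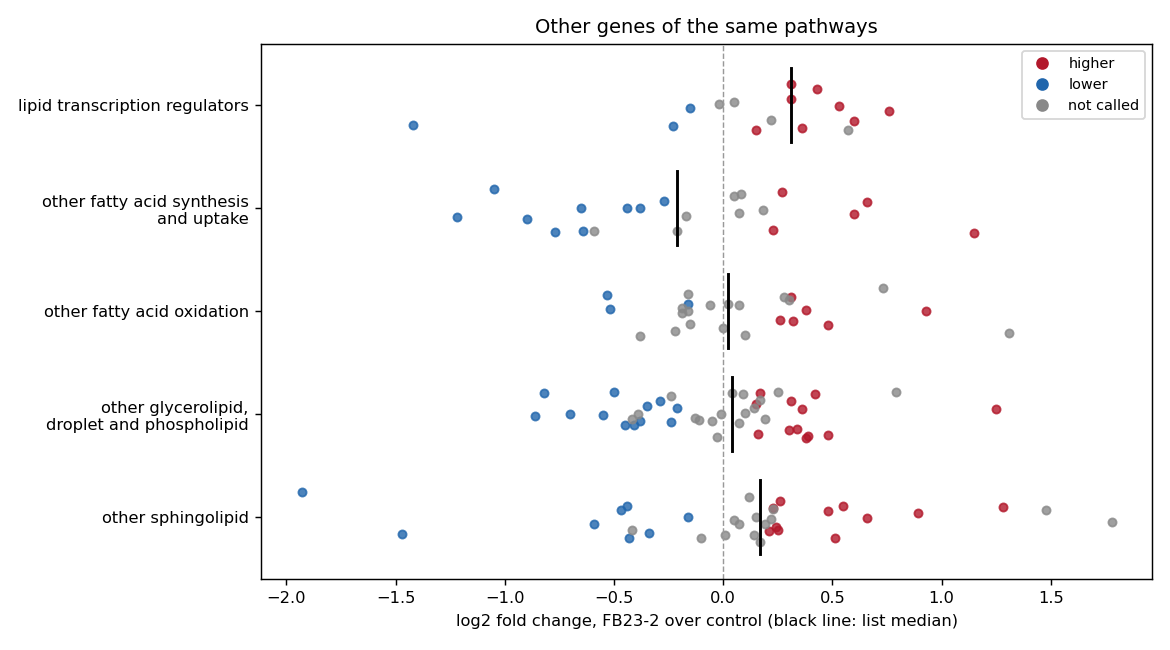
Log2 fold change (x axis, FB23-2 over control) of the tested genes in 5 lists of other lipid genes (points, coloured by call), with each list's median as a black line. Medians run from -0.21 for other fatty acid synthesis and uptake genes to 0.31 for regulators, and every list has called genes on both sides of 0.

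Other genes of fatty acid synthesis and uptake were lower in 9 of 21 tested cases and higher in 5, with a median of -0.21. FABP5, a carrier of fatty acids in the cytosol, fell from 97.6 and 89.0 to 47.0 and 42.9 CPM (-1.05 ± 0.07). ACSF3, the malonyl-CoA synthetase of mitochondria (-0.90 ± 0.05), and SLC27A2, a transporter with acyl-CoA synthetase activity (-0.77 ± 0.15), also fell, while ACSF2, a medium-chain synthetase, rose (1.15 ± 0.08). Other oxidation genes had a median of 0.02, with 6 of 25 higher and 3 lower. The mitochondrial thiolase ACAT1 (-0.53 ± 0.06) and the thioesterase ACOT7 (-0.52 ± 0.05) fell. SLC25A20, the acylcarnitine carrier, rose (0.48 ± 0.10), a call lost on omitting control replicate 2 (edgeR adjusted p = 0.0549, lowest alternative 0.00235). ACAD11 rose too (0.93 ± 0.18), but it shares 64% of its exon bases with an annotated read-through gene on the same strand and is uncertain.

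Other glycerolipid and phospholipid genes split evenly, with 12 of 41 higher and 12 lower. DGAT2, an enzyme of the last step of triglyceride synthesis, rose from 13.0 and 12.9 to 30.3 and 31.6 CPM (1.25 ± 0.09, edgeR adjusted p = 8.39e-06), downstream of the lipins. LPCAT1, which re-acylates lysophosphatidylcholine (-0.86 ± 0.12), PEMT, which methylates phosphatidylethanolamine (-0.82 ± 0.12), and SELENOI, which makes phosphatidylethanolamine (-0.70 ± 0.07), fell. Other sphingolipid genes were higher in 11 of 33 cases and lower in 8, with a median of 0.17. SMPD1, the lysosomal acid sphingomyelinase, rose from 9.42 and 9.79 to 22.6 and 24.3 CPM (1.28 ± 0.11, edgeR adjusted p = 1.84e-05). GBA2, a glucosylceramidase outside lysosomes (0.66 ± 0.06), and SGPP1, a sphingosine 1-phosphate phosphatase (0.55 ± 0.07), rose, and the ceramide synthase CERS4 fell (-0.59 ± 0.10).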

How the data were processed

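The authors deposited 1 table of whole-number counts per Ensembl gene covering the 4 libraries, unnormalized. Per the submitters' processing notes, HISAT2 2.2.0, StringTie and hg38 were used. Annotation release, strand setting and counting step: not given in the sources used here, so that reads of overlapping genes on opposite strands cannot be told apart. Symbols came from a separate list of gene names, coordinates and exon lengths from GENCODE release 29. CPM per kb was divided by the annotated exon bases of a gene. Annotated pseudogenes named for a member had at most 24 counts in a library. All 4 value columns were used.

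Low genes were removed with edgeR 4.0.16 (filterByExpr at a minimum count of 10), and the rest were scaled by TMM and tested with glmQLFit (robust, version 4 method) and glmQLFTest in R 4.3.3, FB23-2 against control, without a replicate block. The fit was tested on simulated data. DESeq2 1.42.0, other scalings and filters, omission of each library, a replicate block and a 1.2-fold test were alternatives. The version of the quasi-likelihood method was added as an alternative after seeing the data. Members, lists and motifs were chosen with earlier results of these data known. Values are printed for members called at an absolute log2 fold change of 0.5 or more and, whatever their change, for FASN, ACACA, ACLY, SCD, ELOVL6, FADS1, FADS2, ACSL4, CPT1A, HADHA, PLIN2, PCYT1A, SPTLC1, SPTLC2 and UGCG. Of each other list, up to 4 called genes with the largest changes at a mean of 5 CPM or more are named, with SREBF1, SREBF2, SCAP, INSIG1, MLXIPL and PPARGC1A. Values per library of ELOVL5, ACADVL, HADHB, ACAA1, ECHS1 and PLIN3 go beyond that rule. So do the level and change of ELOVL4 and the markers printed singly, and all of these were chosen after seeing them. Promoters are RefSeq's. Floors from counts cover counting error only.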

Additional observations from a re-analysis of the deposited data

How the results depend on the processing

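The main counts were 19 lipid genes higher and 10 lower, and 4099 and 3820 over all tested genes. In the test against a 1.2-fold change these were 5 and 5, and 2079 and 2211. With each library left out in turn, 13 to 17 lipid genes were higher and 6 to 10 lower, with 2897 to 3439 and 2750 to 3318 over all genes. The 6 came from omitting control replicate 2. No called gene among the lipid genes and the other lists changed sign under any of the 13 alternatives. Scaling moved the median of all genes by at most 0.05. Upper quartile scaling gave 16 higher and 12 lower lipid genes (3638 and 4234 over all genes), and library size alone 20 and 7 (4624 and 3396). The replicate block gave 19 higher and 10 lower lipid genes (4237 and 4031 over all genes). Deviations of libraries with the same replicate number had a correlation of 0.0652 over 11805 genes, and the labels do not say what a number shares. Under the block ACAD11 had an edgeR adjusted p of 0.0546. With the earlier quasi-likelihood method the lipid genes again numbered 19 and 10. Low counts limit ACSL5, ELOVL7 and PLIN2.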

Other observations

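The branch that makes phosphatidylethanolamine was lower in 3 of its 5 genes looked at, a group picked after the values were seen. Over all tested genes 20.3% were lower, and 26.5% of those at 5 CPM or more. ETNK1, the ethanolamine kinase, went from 131 and 132 to 95.1 and 91.2 CPM (-0.50 ± 0.05, edgeR adjusted p = 3.82e-05). PCYT2, which makes CDP-ethanolamine, went from 44.9 and 46.8 to 34.2 and 34.9 CPM (-0.41 ± 0.07, edgeR adjusted p = 0.00109), against the rise of its phosphatidylcholine counterpart PCYT1A. SELENOI, at the last step, went from 75.7 and 83.2 to 47.5 and 50.5 CPM. These 3 calls held under all alternatives. ETNK2 (0.25 ± 0.09) and CEPT1, which serves both branches (0.17 ± 0.07), did not pass. In the phosphatidylcholine branch CHKA, the kinase of the first step, fell as ETNK1 did (-0.57 ± 0.08). CHPT1, the last enzyme of that branch, rose (0.30 ± 0.07). Its edgeR adjusted p was 0.0552 on omitting FB23-2 replicate 1 and 0.0654 on omitting control replicate 1 (alternatives 0.00361 to 0.307).

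Genes of fatty acid synthesis inside mitochondria, which supplies lipoic acid, were also picked out after their values were seen. MCAT, the malonyl transferase, went from 23.7 and 20.7 to 14.3 and 13.6 CPM (-0.65 ± 0.11, edgeR adjusted p = 0.00102), and MECR, the enoyl reductase, from 28.4 and 26.9 to 22.0 and 18.6 CPM (-0.44 ± 0.10, edgeR adjusted p = 0.00725), a call lost in the 1.2-fold test (0.0742). With ACSF3 these made 3 called lower, and OXSM was the only other gene of this pathway looked at. Over all tested genes 20.3% were lower, and 26.5% of those at 5 CPM or more. OXSM, the condensing enzyme, did not pass (-0.21 ± 0.10, edgeR adjusted p = 0.142) and shares 21.6% of its exon bases with NGLY1 on the opposite strand.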
